A study of Homo sapiens with 24 samples.

Results

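K562 and THP-1, human leukaemia cell lines, were compared in how their RNA differed between the arms of a CBX7 experiment. The quantity reported is the line by arm interaction of each gene, called here the difference between lines. It is the log2 fold change of K562 libraries labelled CBX7 knockdown over K562 controls, minus the log2 fold change of THP-1 libraries labelled CBX7 knockdown over THP-1 controls. A positive value means that the labelled-knockdown libraries stood higher over their controls in K562 than in THP-1. All genes were taken, no measured value chose the libraries, and 12 of the 24 libraries of the series entered.

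The series measured RNA by sequencing in 4 human cell lines, and its title gives the purpose as the consequence of lowering CBX7. The 4 groups used here were K562 labelled CBX7 knockdown, K562 control, THP-1 labelled CBX7 knockdown and THP-1 control, with 3 libraries each. The labels describe lentiviral delivery of an shRNA, either to CBX7 or as a control, yet for all samples, controls too, the treatment entry is an siRNA to CBX7. The labels give no dose, time or clone, and do not say that replicates were separate cultures, so the p-values reflect library to library variation that could be technical.

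CBX7 is a chromodomain subunit of canonical Polycomb repressive complex 1. The complex binds chromatin that Polycomb repressive complex 2 has methylated, ubiquitinates histone H2A through its RING subunits, and keeps developmental genes silent. K562 came from a chronic myeloid leukaemia in blast crisis, carries the BCR-ABL1 fusion kinase and has erythroid features. THP-1 came from an acute monocytic leukaemia, carries a KMT2A fusion and has monocytic features.

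Libraries held 75278732 to 114268304 estimated counts in K562 and 75865875 to 108903517 in THP-1, with 14340 to 15208 genes above 0. Of 15 erythroid markers all 15 were above 0 in K562, with summed levels of 5472 to 5765 CPM (counts scaled by library size, with TMM factors) in libraries labelled knockdown and 3438 to 3642 CPM in controls. The sums in THP-1 were 17.1 to 20.7 and 18.7 to 23.6 CPM. The 15 monocytic markers summed to 3001 to 3186 CPM in THP-1 libraries labelled knockdown and 2977 to 3290 CPM in THP-1 controls, and to 225.1 to 229.2 and 219.2 to 223.5 CPM in K562. THP-1 knockdown replicate 2 stood apart. Its counts differed from those of replicates 1 and 3 by a chi-square per degree of freedom of 69.5 and 67.7, where all other replicate pairs gave 8.27 to 16.9. Where leaving out 1 of the 12 libraries moved a list's count by more than 1.5 times, the range over those 12 fits is given, unless the count stayed at 2 or fewer.

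CBX7 ran against the arm labels in both lines. The K562 libraries labelled knockdown held 37.4, 37.4 and 38.0 CPM, against 12.3, 13.9 and 12.3 CPM in K562 controls. The THP-1 libraries labelled knockdown held 42.2, 34.3 and 38.6 CPM, against 18.9, 15.8 and 15.5 CPM in THP-1 controls. Every library labelled knockdown lay above every control of its line, so higher and lower below mean higher and lower in the libraries that held more CBX7 RNA. The log2 fold change was 1.55 ± 0.10 (SE) in K562 and 1.20 ± 0.10 in THP-1. The difference between lines was 0.35 ± 0.14, with an adjusted p = 0.0925 by edgeR's quasi-likelihood test with Benjamini-Hochberg adjustment over 15434 genes, and did not pass the threshold of 0.05. All adjusted p-values below come from that test.

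The lines differed in many genes. Of 15434 genes tested, 2338 (15.1%) were higher in the difference between lines and 1693 (11%) were lower, 4031 (26.1%) in all. The counts of each list below are to be read beside these shares. In K562 alone 3426 genes (22.2%) rose and 2294 (14.9%) fell in the libraries labelled knockdown, and in THP-1 alone 1364 (8.84%) rose and 1134 (7.35%) fell. Of the 2338 genes higher in the difference, 1559 passed in K562 and not in THP-1, 278 in THP-1 and not in K562, 124 in both in the same direction, 261 in both in opposite directions and 116 in neither. Of the 1693 lower, the numbers were 902, 333, 99, 233 and 126 in the same order. These are bulk libraries, in which fewer cells of a type and less RNA per cell cannot be told apart. Over all genes the median difference was 0.05, and the median size of the log2 fold change was 0.33 in K562 and 0.22 in THP-1. Without THP-1 knockdown replicate 2 the difference held 3011 higher and 2445 lower genes. The 1134 genes that fell in THP-1 numbered 725 without THP-1 control replicate 1 and 710 without THP-1 control replicate 2.

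Many genes are used by one line and nearly silent in the other, so the genes that both lines use were also counted on their own. For 9391 genes the higher arm of each line reached at least 5 CPM, a limit chosen after the values were seen. Of these, 1566 (16.7%) were higher and 1310 (13.9%) lower in the difference between lines, 2876 (30.6%) in all, with a median of 0.01. In K562 2048 (21.8%) rose and 1896 (20.2%) fell, and in THP-1 890 (9.48%) rose and 969 (10.3%) fell. Across these genes, which are not independent replicates, the K562 and THP-1 log2 fold changes had a Pearson correlation of 0.15 and a Spearman correlation of 0.13.

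**Figure D1:**
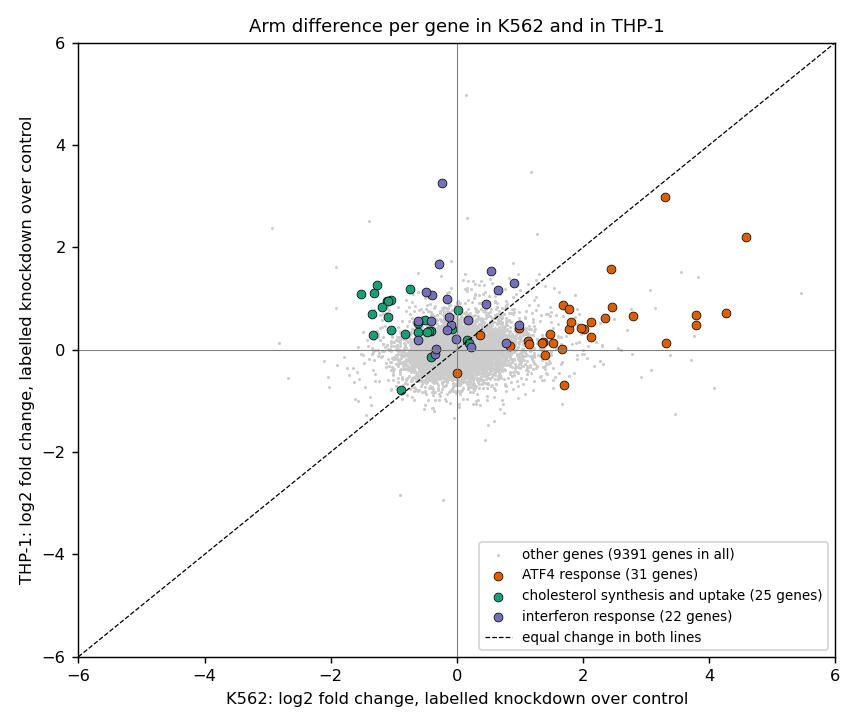
Each point is 1 of 9391 genes of at least 5 CPM in the higher arm of both lines, with its log2 fold change of labelled knockdown over control in K562 (x axis) and in THP-1 (y axis); members of the ATF4, cholesterol and interferon lists are coloured and the dashed line marks equal change. Cholesterol genes lie mostly to the upper left (lower in K562, higher in THP-1) and ATF4 genes to the right. The interferon genes shown have a median of 0.57 on the y axis and are spread about a median of -0.14 on the x axis.

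Genes of cholesterol synthesis and uptake were lower in K562 and higher in THP-1. Cells make cholesterol by the mevalonate pathway, whose genes are switched on by the transcription factor SREBP2 when sterols run low. Of 27 genes tested, 21 were lower in the difference between lines and none was higher, with a median of -1.42. In K562 20 fell and none rose (median -0.82), and in THP-1 20 rose and none fell (median 0.57). For 17 genes both changes passed. The count of 21 was 20 to 23 over the other settings tried. The sterol regulatory element that SREBP2 binds, searched as TCACNCCAC on both strands, had a match in 1.15% of 27305 promoters of 300 bases (RefSeq, GRCh38.p14). It had one in 1 of the 20 list genes in that table and in none of the 15 among them that passed in the difference, so no promoter is shown for the list.

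An early enzyme of the pathway changed in opposite directions. HMGCS1, which makes HMG-CoA, was at 211, 109.8 and 215 CPM in K562 libraries labelled knockdown, against 474, 445 and 410.1 CPM in K562 controls. In THP-1 it was at 220.2, 244 and 205 CPM in libraries labelled knockdown, against 112, 122 and 75.2 CPM in controls. Its groups did not overlap within either line and changed in opposite directions, with a log2 difference of -2.43 ± 0.34 (SE) and an adjusted p = 0.000536.

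Later enzymes and the sterol sensor moved the same way. SQLE, squalene epoxidase, was at 218, 224 and 223 CPM in K562 libraries labelled knockdown, against 519, 504 and 489 CPM in K562 controls. In THP-1 SQLE was at 237, 277 and 239 CPM in libraries labelled knockdown, against 133, 145 and 143 CPM in controls, and the difference was -2.03 ± 0.10 (adjusted p = 3.87e-07). LSS, which closes the sterol ring, averaged 129.7 ± 1.49 CPM in K562 libraries labelled knockdown and 331 ± 15.6 CPM in K562 controls (SD, n = 3 each), and 72.1 ± 5.54 CPM in THP-1 libraries labelled knockdown and 44.2 ± 1.62 CPM in THP-1 controls. DHCR7, the last reductase of the pathway, had a difference of -2.01 ± 0.14 (adjusted p = 3.58e-06). INSIG1, the endoplasmic reticulum protein that retains SREBP when sterols are plentiful and is itself an SREBP target, was at 124, 119 and 112 CPM in K562 libraries labelled knockdown, against 344, 333 and 339.5 CPM in K562 controls. Its THP-1 levels were 240.3, 302 and 245 CPM in libraries labelled knockdown, against 119, 128 and 123 CPM in controls. INSIG1 had the lowest difference of the list's members that passed, at -2.61 ± 0.12 (adjusted p = 3.52e-07).

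Fatty acid genes followed in part. Of 21 fatty acid synthesis genes, 2 were higher and 10 lower in the difference, with a median of -0.48. In K562 5 rose and 7 fell. The K562 median was 0 over all 21 genes, but -0.40 over the 15 with at least 5 CPM in both lines. In THP-1 7 rose and none fell (median 0.29), and 11 rose without THP-1 knockdown replicate 2. SCD, the stearoyl-CoA desaturase, averaged 865 ± 31.8 CPM in K562 libraries labelled knockdown and 1423 ± 13.7 CPM in K562 controls, and 572 ± 93.1 CPM in THP-1 libraries labelled knockdown and 299.8 ± 5.12 CPM in THP-1 controls, a difference of -1.65 ± 0.14 (adjusted p = 1.62e-05). SREBF1, which encodes the SREBP of lipid synthesis, had a difference of -1.12 ± 0.11 (adjusted p = 4.76e-05). FASN, fatty acid synthase, fell in K562 to 461 ± 11.5 CPM in libraries labelled knockdown, against 1109.8 ± 97.5 CPM in controls. FASN did not pass in THP-1 (adjusted p = 0.157, but 0.000882 without THP-1 knockdown replicate 2), and its difference between lines was -1.63 ± 0.22 (adjusted p = 0.000454).

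**Figure D2:**
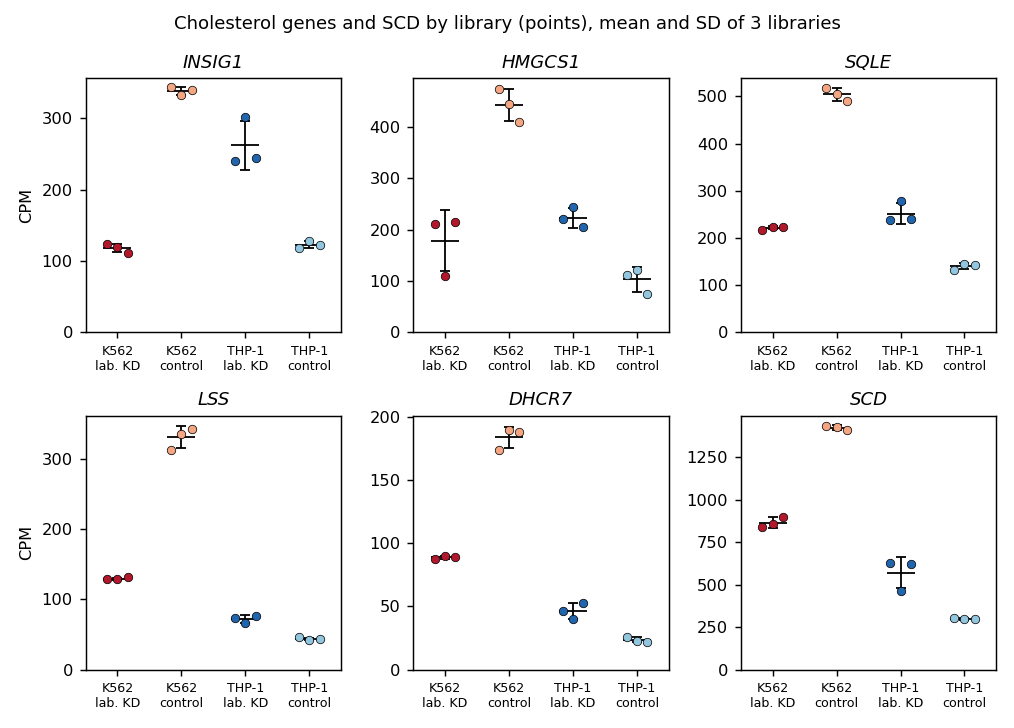
CPM of 5 cholesterol genes and SCD of fatty acid synthesis (y axis, from 0) in each library of the 4 groups (x axis, lab. KD for labelled knockdown), with the mean (bar) and SD of 3 libraries. K562 libraries labelled knockdown lie below K562 controls in all 6 genes, and the mean of THP-1 libraries labelled knockdown lies above that of THP-1 controls.

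Genes of the ATF4 response were higher in both lines and more so in K562. ATF4 is the transcription factor of the integrated stress response. Its messenger RNA is translated when the kinases that phosphorylate eIF2alpha are active, for example when amino acids are scarce, and it switches on amino acid synthesis, transport and tRNA charging. Of 39 genes tested, 31 were higher in the difference between lines and none was lower, with a median of 1.55. In K562 35 rose and none fell (median 2.02), in THP-1 24 rose and none fell (median 0.49), and 24 rose in both. The count of 31 was 29 to 32 over the other settings.

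The transcription factors themselves were among the genes that moved. ATF4 was at 709, 686 and 706 CPM in K562 libraries labelled knockdown, against 258, 255 and 238 CPM in K562 controls. THP-1 libraries labelled knockdown held 456, 559 and 444 CPM of it, against 418, 387 and 377 CPM in controls, a rise that did not pass in 6 of the 12 fits that left out 1 library (adjusted p up to 0.107). Its difference between lines was 1.18 ± 0.12 (adjusted p = 6.36e-05). ATF5, a related factor that is controlled in the same way, was at 583, 586 and 600.0 CPM in K562 libraries labelled knockdown, against 61.2, 59.6 and 56.6 CPM in K562 controls. In THP-1 ATF5 was at 89.7, 92.5 and 101 CPM in libraries labelled knockdown, against 95.9, 81.8 and 80.2 CPM in controls (adjusted p = 0.269), and the difference was 3.18 ± 0.11 (adjusted p = 5.61e-08). DDIT3, the stress factor CHOP, rose in K562 and not detectably in THP-1, with a difference of 1.49 ± 0.38 (adjusted p = 0.0153) that did not pass with limma-voom and a variance weight per line (adjusted p = 0.111). TRIB3, a pseudokinase that restrains ATF4, had a difference of 1.63 ± 0.11 (adjusted p = 4.39e-06).

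ASNS and CHAC1 are shown with their promoters because both rose in each line and, among members that both lines use and that passed in the difference, had the largest differences of those with a match to the element searched. ASNS makes asparagine, and CHAC1 degrades glutathione. The stretches run from 250 bases before to 50 bases after the RefSeq start (GRCh38.p14), at chr7:97872359-97872658, minus strand, for ASNS and at chr15:40953221-40953520, plus strand, for CHAC1. Capitals mark matches to TGATGNAA, the C/EBP-ATF composite element, on either strand. Of 27305 promoters of this length 3.67% held a match, as did 6 of 27 of the ATF4 list with a promoter in the table and 5 of the 22 among them that passed in the difference. A match is a run of letters and not evidence of binding.
ASNS: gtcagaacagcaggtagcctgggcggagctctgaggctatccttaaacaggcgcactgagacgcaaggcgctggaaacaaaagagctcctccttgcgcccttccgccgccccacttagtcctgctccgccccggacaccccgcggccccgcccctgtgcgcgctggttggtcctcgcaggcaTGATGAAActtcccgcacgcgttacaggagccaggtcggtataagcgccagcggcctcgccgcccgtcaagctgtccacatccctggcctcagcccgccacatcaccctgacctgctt
CHAC1: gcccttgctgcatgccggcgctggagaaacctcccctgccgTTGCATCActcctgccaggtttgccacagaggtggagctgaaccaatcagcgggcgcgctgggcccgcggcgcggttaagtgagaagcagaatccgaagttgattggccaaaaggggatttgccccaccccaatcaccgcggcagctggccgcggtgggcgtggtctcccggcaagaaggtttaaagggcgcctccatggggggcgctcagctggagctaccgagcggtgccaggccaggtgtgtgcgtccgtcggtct

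ASNS was at 693, 681 and 630.2 CPM in K562 libraries labelled knockdown, against 49.1, 49.8 and 46.0 CPM in K562 controls. THP-1 libraries labelled knockdown held 39.1, 50.8 and 41.6 CPM of it, against 29.2, 26.5 and 26.6 CPM in controls. The groups did not overlap in either line, with log2 fold changes of 3.79 ± 0.10 in K562 and 0.68 ± 0.09 in THP-1 and a difference of 3.11 ± 0.13 (adjusted p = 2.72e-07). CHAC1 was at 32.2, 29.2 and 31.7 CPM in K562 libraries labelled knockdown, against 1.35, 1.35 and 1.17 CPM in K562 controls. THP-1 libraries labelled knockdown held 9.81, 12.5 and 9.995 CPM of it, against 2.64, 2.29 and 2.05 CPM in controls. CHAC1 had a difference of 2.37 ± 0.18 (adjusted p = 7.92e-06).

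PHGDH and PSAT1 of serine synthesis rose in both lines, and more so in K562. PHGDH, the first enzyme of the pathway, was at 394, 392 and 381 CPM in K562 libraries labelled knockdown, against 27.1, 28.8 and 28.2 CPM in K562 controls. In THP-1 it was at 149, 175 and 157 CPM in libraries labelled knockdown, against 121, 113 and 109 CPM in controls. K562 controls were thus the group with the lowest PHGDH, and the difference between lines was 3.31 ± 0.10 (adjusted p = 1.72e-08). PSAT1, the next enzyme, averaged 525 ± 11.2 CPM in K562 libraries labelled knockdown and 75.4 ± 3.34 CPM in K562 controls, and 141 ± 17.9 CPM in THP-1 libraries labelled knockdown and 89.1 ± 3.68 CPM in THP-1 controls, a difference of 2.14 ± 0.12 (adjusted p = 1.03e-06). Of 19 genes of serine and one-carbon metabolism, 12 were higher in the difference between lines and none was lower, with a median of 0.97. In K562 11 rose and 2 fell (median 0.79). In THP-1 5 rose and 5 fell (median -0.04), and 6 and 7 without THP-1 knockdown replicate 2, so the list did not rise as a whole there. MTHFD1L, a mitochondrial folate enzyme, rose in K562 and fell in THP-1, at 82.3 ± 1.70 CPM in THP-1 libraries labelled knockdown and 96.9 ± 0.983 CPM in THP-1 controls, with a difference of 1.90 ± 0.07 (adjusted p = 5.61e-08). ALDH1L2, which oxidises mitochondrial formyl-folate, averaged 136 ± 4.88 CPM in K562 libraries labelled knockdown and 7.04 ± 0.789 CPM in K562 controls, and 117 ± 32.4 CPM in THP-1 libraries labelled knockdown and 71.0 ± 2.40 CPM in THP-1 controls, a difference of 3.55 ± 0.25 (adjusted p = 4.39e-06).

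Amino acid transporters and tRNA charging enzymes were also higher in the difference. The ATF4 list itself holds genes of amino acid synthesis and transport, such as PHGDH and SLC7A11, so these lists are not separate results. Of 22 transporters 10 were higher and 1 lower, with a median of 0.58, and of 20 aminoacyl-tRNA synthetases 13 were higher and 1 lower, with a median of 0.56. SLC1A4, a carrier of alanine and serine, averaged 91.1 ± 3.84 CPM in K562 libraries labelled knockdown and 22.5 ± 1.15 CPM in K562 controls, and 88.4 ± 6.68 CPM in THP-1 libraries labelled knockdown and 93.7 ± 3.05 CPM in THP-1 controls (difference 2.10 ± 0.10, adjusted p = 3.52e-07). SLC43A1, a carrier of large neutral amino acids, rose in K562 and fell in THP-1, with a difference of 1.92 ± 0.07 (adjusted p = 7.55e-08). WARS, the tryptophanyl-tRNA synthetase, had a difference of 1.55 ± 0.08 (adjusted p = 5.66e-07), and GARS, the glycyl-tRNA synthetase, one of 1.37 ± 0.08 (adjusted p = 1.91e-06). QARS, the glutaminyl-tRNA synthetase, rose in K562 (0.22 ± 0.05) and fell in THP-1 (-0.28 ± 0.05). A member of the ATF4 list without a detected difference was SLC7A11, the cystine-glutamate antiporter chain, at 138, 141 and 156 CPM in K562 libraries labelled knockdown, against 15.4, 14.8 and 14.2 CPM in K562 controls. In THP-1 SLC7A11 was at 185, 124 and 178 CPM in libraries labelled knockdown, against 18.9, 20.997 and 21.8 CPM in controls, so that it rose in both lines by 3.29 ± 0.14 and 2.98 ± 0.14 on the log2 scale (difference 0.31 ± 0.19, adjusted p = 0.247).

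ASS1, argininosuccinate synthase of arginine synthesis, had one of the highest differences between lines among genes that both lines use. ASS1 was at 55.3, 56.5 and 54.8 CPM in K562 libraries labelled knockdown, against 1.12, 1.30 and 1.40 CPM in K562 controls. In THP-1 it was at 123, 133 and 125 CPM in libraries labelled knockdown, against 62.5, 59.1 and 55.4 CPM in controls. It rose in both lines, by 5.45 ± 0.09 in K562 and 1.11 ± 0.08 in THP-1, with a difference of 4.34 ± 0.11 (adjusted p = 1.07e-08). AKNA, an AT-hook protein of microtubule organisation, had a difference of 3.93 ± 0.26, with 163 ± 3.71 CPM in K562 libraries labelled knockdown and 12.4 ± 1.19 CPM in K562 controls. ERFE, the erythroid hormone erythroferrone, had a difference of 3.49 ± 0.18, with 19.9 ± 1.01 CPM in K562 libraries labelled knockdown and 1.48 ± 0.231 CPM in K562 controls. CYFIP2, a subunit of the WAVE actin complex, had a difference of 3.47 ± 0.24 (adjusted p = 4.39e-06). These genes were named after their values were seen.

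Interferon response genes mostly rose in THP-1, with no common direction in K562. Type I interferon acts through a transcription factor complex that binds the interferon-stimulated response element and switches on antiviral genes. Of 49 genes tested, 1 was higher and 23 were lower in the difference between lines, with a median of -0.78. In K562 13 rose and 12 fell (median -0.03), where 22.2% and 14.9% of all genes did. In THP-1 37 rose and none fell (median 0.89), where 8.84% and 7.35% of all genes did. Of the 22 members with at least 5 CPM in both lines, 13 were lower in the difference. The count of 23 ran from 21 to 39 over the other settings, the highest with limma on log2(FPKM + 1) and no filter, with 27 without THP-1 knockdown replicate 2.

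IFIT3 and ISG15 are shown with their promoters because, among members that both lines use and that passed in the difference, they had the largest differences of those with a match to the element. IFIT3 is an antiviral protein, and ISG15 a ubiquitin-like modifier. The stretches lie at chr10:89327747-89328046, plus strand, for IFIT3 and at chr1:1013247-1013546, plus strand, for ISG15 (RefSeq, GRCh38.p14). Capitals mark matches, on either strand, to the core of the interferon-stimulated response element, a pair of GAAA runs with 2 bases of any kind between them. IFIT3 holds 2 separate matches, and the 2 matches of ISG15 overlap. The share of all promoters with a match was 3.65%, and 23 of the 37 list genes in the table and 12 of the 16 among them that passed in the difference held one.
IFIT3: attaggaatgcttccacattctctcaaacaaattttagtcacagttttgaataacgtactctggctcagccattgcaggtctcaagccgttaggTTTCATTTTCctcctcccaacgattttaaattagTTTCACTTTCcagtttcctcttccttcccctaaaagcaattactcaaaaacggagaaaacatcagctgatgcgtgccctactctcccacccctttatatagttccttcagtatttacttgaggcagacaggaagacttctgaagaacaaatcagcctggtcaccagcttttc
ISG15: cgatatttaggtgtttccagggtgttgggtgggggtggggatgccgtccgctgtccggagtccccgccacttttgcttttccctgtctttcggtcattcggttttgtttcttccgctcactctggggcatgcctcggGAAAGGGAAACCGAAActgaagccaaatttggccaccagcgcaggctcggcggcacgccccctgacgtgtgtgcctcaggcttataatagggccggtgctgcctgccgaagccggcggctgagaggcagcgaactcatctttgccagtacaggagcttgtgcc

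In K562 IFIT3 was at 8.02, 8.91 and 7.77 CPM in libraries labelled knockdown, against 11.2, 9.13 and 8.72 CPM in controls, where the ranges overlapped and the test did not pass (adjusted p = 0.116). It was at 35.8, 34.2 and 30.7 CPM in THP-1 libraries labelled knockdown, against 3.61, 3.60 and 3.37 CPM in THP-1 controls, with no overlap. IFIT3 had a difference between lines of -3.48 ± 0.16 (adjusted p = 3.41e-07). ISG15 was at 8.95, 8.99 and 7.66 CPM in K562 libraries labelled knockdown, against 10.8, 10.2 and 10.01 CPM in K562 controls, and did not pass there (adjusted p = 0.170). In THP-1 ISG15 was at 21.5, 31.6 and 20.7 CPM in libraries labelled knockdown, against 8.32, 7.32 and 7.58 CPM in controls, and its difference was -1.95 ± 0.21 (adjusted p = 9.96e-05, and 7.63e-06 without THP-1 knockdown replicate 2).

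Some members fell in K562 while they rose in THP-1. IFITM1, a membrane protein that restricts viral entry, averaged 538 ± 6.07 CPM in K562 libraries labelled knockdown and 757 ± 16.3 CPM in K562 controls, and 20.7 ± 3.24 CPM in THP-1 libraries labelled knockdown and 9.44 ± 1.36 CPM in THP-1 controls (difference -1.62 ± 0.16, adjusted p = 5.34e-05). BST2, which tethers budding virus, had log2 fold changes of -0.62 ± 0.11 in K562 and 0.56 ± 0.11 in THP-1. OASL, an oligoadenylate synthetase-like protein, was at 0, 0.202 and 0.117 CPM in K562 libraries labelled knockdown, against 2.03, 2.05 and 1.14 CPM in K562 controls, and at 8.68, 6.33 and 9.57 CPM in THP-1 libraries labelled knockdown, against 1.57, 1.23 and 1.25 CPM in THP-1 controls. EPSTI1 rose in both lines, to 4.53 ± 0.252 CPM in K562 libraries labelled knockdown, against 0.570 ± 0.1003 CPM in K562 controls, and to 12.2 ± 0.561 CPM in THP-1 libraries labelled knockdown, against 1.63 ± 0.0960 CPM in THP-1 controls. The EPSTI1 difference between lines was 0.09 ± 0.20 (adjusted p = 0.812), but -0.58 with limma on log2(FPKM + 1), where it passed (adjusted p = 5.29e-05). SOCS1, the feedback inhibitor of cytokine signalling, fell in K562 to 19.8 ± 0.668 CPM in libraries labelled knockdown, against 58.0 ± 3.63 CPM in controls. It rose in THP-1 to 1.55 ± 0.365 CPM in libraries labelled knockdown, against 0.558 ± 0.121 CPM in controls (difference -3.01 ± 0.24, adjusted p = 1.05e-05).

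**Figure D3:**
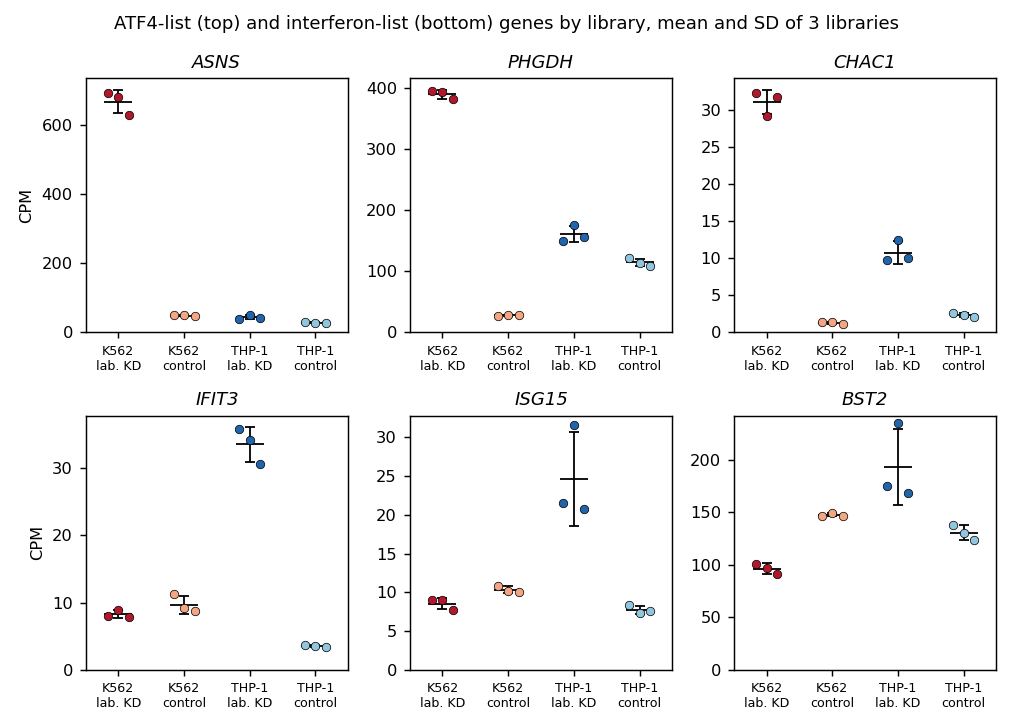
CPM (y axis, from 0) of 3 genes of the ATF4 list (top) and 3 of the interferon list (bottom) in each library of the 4 groups (x axis, lab. KD for labelled knockdown), with the mean and SD of 3 libraries. ASNS, PHGDH and CHAC1 stand highest in K562 libraries labelled knockdown, and IFIT3, ISG15 and BST2 in THP-1 libraries labelled knockdown.

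More inflammatory and NF-kappaB genes fell than rose in K562. Of 27 inflammatory cytokines and chemokines tested, 2 were higher and 9 lower in the difference between lines, but 1 of the 27 had at least 5 CPM in both lines. In K562 3 rose and 9 fell, and in THP-1 4 rose and none fell. The 4 were 2 to 5 when each library was left out, with 2 without THP-1 knockdown replicate 1 or 2 or THP-1 control replicate 1 or 2. CXCL8, the neutrophil chemokine interleukin 8, was at 2.30, 2.82 and 2.09 CPM in K562 libraries labelled knockdown, against 18.7, 17.7 and 16.1 CPM in K562 controls. In THP-1 CXCL8 was at 3.48, 5.50 and 3.27 CPM in libraries labelled knockdown, against 1.87, 2.14 and 2.18 CPM in controls, and the difference was -3.85 ± 0.29 (adjusted p = 7.06e-06). VEGFA, the vascular growth factor, went the other way and rose in K562 to 221 ± 12.7 CPM in libraries labelled knockdown, against 72.9 ± 1.45 CPM in controls (difference 1.33 ± 0.17, adjusted p = 0.000293).

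Of 21 NF-kappaB pathway genes, 2 were higher and 7 lower in the difference, while 3 rose and 11 fell in K562 and 3 rose and 2 fell in THP-1 (1 to 3 fell when each library was left out, with 1 without THP-1 knockdown replicate 1 or 3 or THP-1 control replicate 1). With all 24 libraries in one fit, 11 were lower in the difference. RELB, a subunit of the noncanonical pathway, fell in K562 by 1.78 on the log2 scale, with a difference of -1.65 ± 0.17 (adjusted p = 7.76e-05). BCL3, a nuclear IkappaB protein, had a difference of -1.59 ± 0.16 (adjusted p = 5.43e-05). TNFAIP3, the feedback inhibitor A20, rose in K562 to 17.5 ± 0.578 CPM in libraries labelled knockdown, against 8.19 ± 0.424 CPM in controls, and averaged 28.8 ± 3.98 CPM in THP-1 libraries labelled knockdown and 30.6 ± 1.47 CPM in THP-1 controls (difference 1.18 ± 0.14, adjusted p = 0.000172).

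More feedback genes of ERK signalling fell than rose in K562, and those that changed in THP-1 rose. ERK, the last kinase of the RAS cascade, induces phosphatases and Sprouty proteins that damp it. Of 17 genes tested, none was higher and 8 were lower in the difference between lines, with a median of -1.20. In K562 2 rose and 6 fell, and in THP-1 9 rose and none fell. SPRY4 was at 41.3, 39.97 and 41.3 CPM in K562 libraries labelled knockdown, against 59.1, 62.8 and 62.2 CPM in K562 controls. In THP-1 SPRY4 was at 3.86, 3.81 and 5.70 CPM in libraries labelled knockdown, against 1.32, 0.932 and 1.12 CPM in controls, a difference of -2.57 ± 0.22 (adjusted p = 1.69e-05). PHLDA1, a pleckstrin homology-like protein, averaged 1.60 ± 0.547 CPM in K562 libraries labelled knockdown and 6.05 ± 0.184 CPM in K562 controls, and 7.87 ± 1.09 CPM in THP-1 libraries labelled knockdown and 2.56 ± 0.325 CPM in THP-1 controls (difference -3.54 ± 0.32, adjusted p = 2.50e-05). DUSP6, a phosphatase of ERK, averaged 0.708 ± 0.158 CPM in K562 libraries labelled knockdown and 1.10 ± 0.113 CPM in K562 controls, and 46.9 ± 4.32 CPM in THP-1 libraries labelled knockdown and 29.2 ± 2.08 CPM in THP-1 controls (difference -1.31 ± 0.20, adjusted p = 0.000855).

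Among 24 TGF-beta and ID genes, 3 were higher and 10 lower in the difference, with a median of -0.37. ID1 and ID3, inhibitors of bHLH factors and targets of BMP signalling, fell in K562 and rose in THP-1. ID1 was at 36.8, 33.3 and 26.7 CPM in K562 libraries labelled knockdown, against 46.1, 49.4 and 53.2 CPM in K562 controls. In THP-1 ID1 was at 4.83, 7.26 and 5.18 CPM in libraries labelled knockdown, against 2.58, 2.44 and 2.87 CPM in controls (difference -1.75 ± 0.23, adjusted p = 0.000318). The ID3 difference was -2.10 ± 0.17 (adjusted p = 1.05e-05). TGFBR1, the type I receptor, averaged 105 ± 4.60 CPM in K562 libraries labelled knockdown and 164 ± 8.32 CPM in K562 controls, and 115 ± 3.71 CPM in THP-1 libraries labelled knockdown and 83.3 ± 4.11 CPM in THP-1 controls (difference -1.11 ± 0.09, adjusted p = 9.86e-06).

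Most heat shock protein genes fell in K562. Of 26 genes tested, 1 was higher and 17 were lower in the difference between lines, with a median of -0.61. In K562 1 rose and 17 fell (median -0.49), and in THP-1 5 rose and none fell (median 0.11). The 5 were 3 or fewer in 10 of the 12 fits that left out a library, and 1 without THP-1 control replicate 2 or 3. HSPA8, the constitutive Hsc70 chaperone, was at 1370.1, 1341 and 1318 CPM in K562 libraries labelled knockdown, against 3481, 3299 and 3148 CPM in K562 controls. In THP-1 HSPA8 was at 3402, 3762 and 3255 CPM in libraries labelled knockdown, against 3434, 3598 and 3360.1 CPM in controls, where the ranges overlapped. HSPA8 had a difference of -1.30 ± 0.09 (adjusted p = 5.70e-06). HSPB1, a small heat shock protein, averaged 134 ± 3.06 CPM in K562 libraries labelled knockdown and 303 ± 18.5 CPM in K562 controls, and 581 ± 116 CPM in THP-1 libraries labelled knockdown and 388 ± 60.3 CPM in THP-1 controls (difference -1.77 ± 0.20, adjusted p = 0.000108). HSPA1A, whose counts cannot be told apart from those of its near-identical copy HSPA1B, had a difference of -1.52 ± 0.08 (adjusted p = 1.03e-06). The member that was higher in the difference was HSPA9, the mitochondrial Hsp70, at 0.79 ± 0.09 (adjusted p = 0.000150).

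Protein breakdown genes were lower in the difference by smaller amounts. Of 42 proteasome genes none was higher and 15 were lower, with a median of -0.31, and 1 rose and 17 fell in K562. Without THP-1 knockdown replicate 2, 28 fell in K562, 2 were higher and 19 lower in the difference, and the median in THP-1 was -0.02 in place of 0.11. All 24 libraries in one fit gave 26 lower genes and DESeq2 gave 24. PSMD1, a subunit of the regulatory particle, averaged 138 ± 2.08 CPM in K562 libraries labelled knockdown and 225 ± 11.1 CPM in K562 controls, and 182 ± 8.81 CPM in THP-1 libraries labelled knockdown and 183 ± 3.95 CPM in THP-1 controls (difference -0.69 ± 0.08, adjusted p = 0.000139). Of 39 lysosome and autophagy genes 2 were higher and 18 lower in the difference, with a median of -0.35, while 16 rose and none fell in THP-1. Without THP-1 knockdown replicate 2, 4 were higher. CTSD, the aspartic protease cathepsin D, averaged 177 ± 5.59 CPM in K562 libraries labelled knockdown and 243 ± 12.2 CPM in K562 controls, and 503 ± 26.1 CPM in THP-1 libraries labelled knockdown and 248 ± 15.2 CPM in THP-1 controls (difference -1.48 ± 0.09, adjusted p = 2.27e-06). CTSL, cathepsin L, rose in THP-1 to 131 ± 13.7 CPM in libraries labelled knockdown, against 51.6 ± 3.10 CPM in controls (difference -1.17 ± 0.12, adjusted p = 4.83e-05).

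Of 33 targets of the oxidative stress factor NRF2, 1 was higher and 13 were lower in the difference, with 15 rising and none falling in THP-1. Without THP-1 knockdown replicate 2, 3 were higher and 16 lower. AKR1C2, an aldo-keto reductase with near-identical family members whose reads may be shared, rose in both lines, by 1.18 ± 0.14 in K562 and 3.48 ± 0.16 in THP-1 (difference -2.30 ± 0.21, adjusted p = 2.46e-05). PGD, of the pentose phosphate pathway, averaged 410.3 ± 3.18 CPM in K562 libraries labelled knockdown and 373 ± 2.78 CPM in K562 controls, and 386 ± 4.23 CPM in THP-1 libraries labelled knockdown and 233 ± 16.4 CPM in THP-1 controls (difference -0.59 ± 0.08, adjusted p = 0.000397). Of 10 metallothioneins none was higher and 4 were lower in the difference. MT2A averaged 6.08 ± 1.46 CPM in K562 libraries labelled knockdown and 13.1 ± 0.792 CPM in K562 controls, and 28.6 ± 6.73 CPM in THP-1 libraries labelled knockdown and 17.3 ± 0.447 CPM in THP-1 controls (difference -1.83 ± 0.26, adjusted p = 0.000575).

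Glycolysis and hypoxia genes split. Of 34 tested, 10 were higher and 12 lower in the difference between lines. In K562 7 rose and 17 fell, and in THP-1 2 rose and 11 fell, where the 11 were 7 without THP-1 knockdown replicate 1 and 17 without replicate 2. PKM, the pyruvate kinase, was at 268, 267 and 265 CPM in K562 libraries labelled knockdown, against 767, 764 and 774 CPM in K562 controls. In THP-1 PKM was at 926, 910.0 and 961 CPM in libraries labelled knockdown, against 1058, 993 and 930.4 CPM in controls (difference -1.43 ± 0.08, adjusted p = 1.03e-06). ALDOA, an aldolase, had a difference of -0.82 ± 0.11 (adjusted p = 0.000377). PDK1, the kinase that blocks pyruvate entry into mitochondria, rose in K562 (0.42 ± 0.09) and fell in THP-1 (-0.58 ± 0.09), with a difference of 1.01 ± 0.13 (adjusted p = 0.000344).

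**Figure D4:**
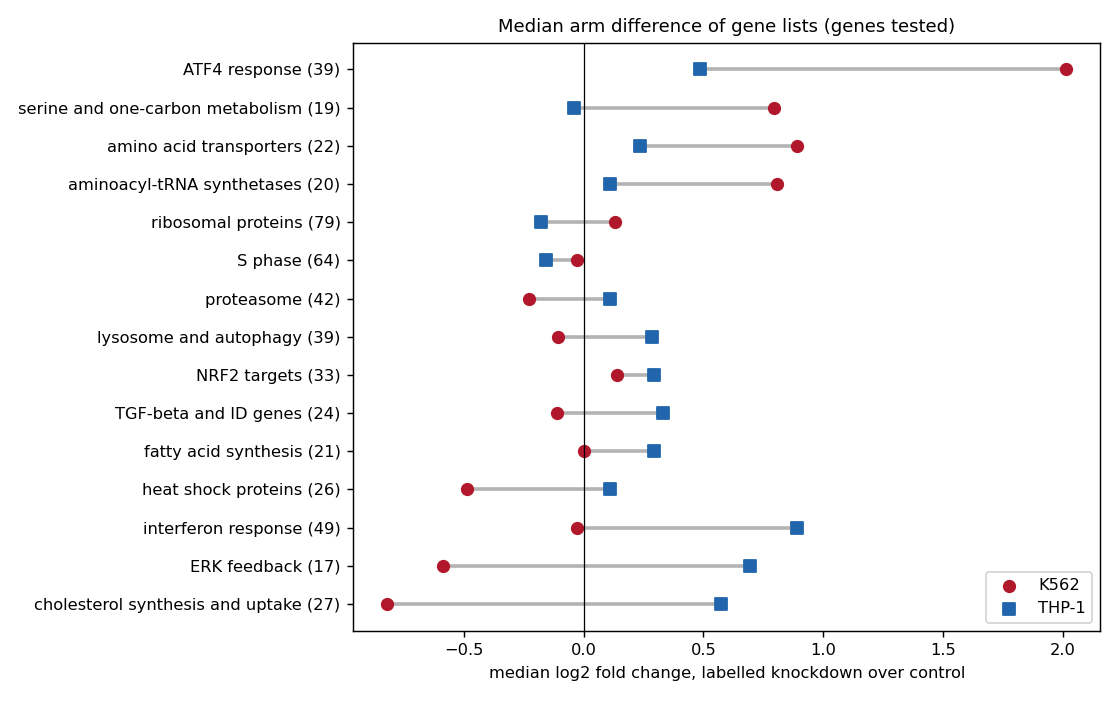
Median log2 fold change of labelled knockdown over control (x axis) of the tested members of 15 gene lists (rows, with the number of genes) in K562 (circles) and THP-1 (squares). Among these 15, chosen from 49 lists, the longest bars belong to the ATF4 list (2.02 in K562, 0.49 in THP-1) and the cholesterol list (-0.82 in K562, 0.57 in THP-1). Medians lay further apart in 2 lists not shown, which have few or no genes of at least 5 CPM in both lines. These are inflammatory cytokines and chemokines (-1.73 in K562, 0.43 in THP-1) and globin genes (0.95 in K562, 5.07 in THP-1). The ribosomal protein and S phase values rest on THP-1 libraries of which replicate 2 labelled knockdown stands apart.

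Most globin genes rose in K562. Of 10 tested, 8 rose and none fell in K562, with a median of 0.95. HBG2, a gamma globin whose reads cannot be told apart from those of its near-identical copy HBG1, was at 1591, 1603 and 1408 CPM in K562 libraries labelled knockdown, against 744, 843 and 819.7 CPM in K562 controls. In THP-1 HBG2 was at 0.415, 0.243 and 0.150 CPM in libraries labelled knockdown and at 0 in all 3 controls, where a count of 0 allows up to 0.0284 to 0.0367 CPM. No globin gene had 5 CPM in both lines, and the 5 that were lower in the difference rest on such THP-1 levels near 0. The direction of the globin list in the difference turned with the scale: with limma on log2(FPKM + 1), 8 were higher and 1 lower, against none higher and 5 lower in the fit to counts.

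Of 14 heme synthesis genes 5 were higher and 2 lower in the difference, and 10 rose and 2 fell in K562. PPOX, which makes protoporphyrin, averaged 52.6 ± 0.908 CPM in K562 libraries labelled knockdown and 28.7 ± 1.25 CPM in K562 controls, and 8.49 ± 0.0388 CPM in THP-1 libraries labelled knockdown and 10.1 ± 0.723 CPM in THP-1 controls (difference 1.12 ± 0.10, adjusted p = 1.80e-05). ALAS1, the housekeeping first enzyme, fell in K562 to 45.4 ± 1.21 CPM in libraries labelled knockdown, against 93.0 ± 4.54 CPM in controls (difference -1.30 ± 0.09, adjusted p = 6.34e-06). Of 26 red cell membrane genes 13 rose and 2 fell in K562, where 22.2% and 14.9% of all genes did. In the difference 5 were higher and 5 lower, where 15.1% and 11% of all genes were. When each library was left out, 3 to 5 were higher and 3 to 8 lower, with 5 and 8 without THP-1 knockdown replicate 2, and 1 to 3 fell in K562. With limma on log2(FPKM + 1), 16 were higher and 3 lower. Of 19 iron handling genes 6 were higher and 5 lower in the difference. TFRC, the transferrin receptor, was at 448, 463 and 468 CPM in K562 libraries labelled knockdown, against 1045, 1044 and 975 CPM in K562 controls. In THP-1 TFRC was at 340.0, 286 and 333 CPM in libraries labelled knockdown, against 305, 327 and 344 CPM in controls, and its difference was -1.13 ± 0.11 (adjusted p = 3.25e-05). LMO2, an adaptor of the GATA1 and TAL1 complex, rose in K562 to 82.4 ± 4.73 CPM in libraries labelled knockdown, against 32.8 ± 2.82 CPM in controls, and averaged 157 ± 19.9 CPM in THP-1 libraries labelled knockdown and 157 ± 4.49 CPM in THP-1 controls (difference 1.33 ± 0.13, adjusted p = 5.31e-05).

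Of 39 monocyte receptors and integrins 5 were higher and 9 lower in the difference, where 15.1% and 11% of all genes were. In K562 5 rose and 9 fell, where 22.2% and 14.9% of all genes did. The 5 that were higher numbered 3 without K562 knockdown replicate 2 or 3, and with limma on log2(FPKM + 1) and no filter 15 were lower. Of the 39, 8 had at least 5 CPM in both lines. ITGAX, the integrin chain CD11c, was at 6.48, 5.72 and 6.57 CPM in K562 libraries labelled knockdown, against 40.7, 39.0 and 41.0 CPM in K562 controls. In THP-1 ITGAX was at 69.4, 49.2 and 64.9 CPM in libraries labelled knockdown, against 96.7, 87.6 and 84.0 CPM in controls, so that it fell in both lines and more in K562 (difference -2.14 ± 0.17, adjusted p = 8.91e-06). ITGAM, the chain CD11b, fell in K562 by 1.34 on the log2 scale, with a difference of -1.36 ± 0.15 (adjusted p = 0.000129). FCGR2A, an Fc receptor, went up in K562, at 96.2 ± 2.60 CPM in libraries labelled knockdown and 33.8 ± 2.16 CPM in controls (difference 1.30 ± 0.10, adjusted p = 6.48e-06). MS4A3, a cell cycle regulator of granulocyte precursors, rose in K562 to 74.9 ± 4.70 CPM in libraries labelled knockdown, against 11.5 ± 1.02 CPM in controls (difference 2.31 ± 0.16, adjusted p = 3.84e-06).

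Counts of replication and ribosome genes moved with 1 THP-1 library. Of 64 S phase genes 14 were higher and 3 lower in the difference between lines, and in THP-1 none rose and 20 fell. Without THP-1 knockdown replicate 2 the numbers were 21 and 3, and none and 28. PRIM1, the primase subunit, averaged 121 ± 3.37 CPM in K562 libraries labelled knockdown and 64.8 ± 3.21 CPM in K562 controls, and 76.8 ± 7.82 CPM in THP-1 libraries labelled knockdown and 87.4 ± 5.18 CPM in THP-1 controls (difference 1.09 ± 0.11, adjusted p = 6.29e-05). CDT1, which loads the replicative helicase, had a difference of 0.73 ± 0.12 (adjusted p = 0.00145). UHRF1, which guides DNA methylation after replication, fell in K562 (-0.88 ± 0.06), with a difference of -0.71 ± 0.09 (adjusted p = 0.000190).

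Of 79 genes of cytosolic ribosomal proteins, which have many near-identical pseudogenes that make their counts uncertain, 7 were higher and 1 lower in the difference between lines, and none rose and 2 fell in THP-1. Without THP-1 knockdown replicate 2, 70 were higher and 1 lower in the difference, and 74 fell in THP-1. In 5 of the other 11 such fits 4 were higher, and all 24 libraries in one fit gave 33. RPL13A was at 2561, 2569 and 2465 CPM in K562 libraries labelled knockdown, against 1871, 1811 and 1881 CPM in K562 controls. THP-1 libraries labelled knockdown held 1139, 1633 and 1216 CPM of RPL13A, replicate 2 being the highest, against 1748, 1651 and 1573 CPM in THP-1 controls, and its difference was 0.77 ± 0.16 (adjusted p = 0.00495, and 5.48e-06 without that library). In that library ribosomal proteins were a median of 0.50 (log2) above the mean of replicates 1 and 3, and 1298 of 10801 genes were at least 1.5-fold away from that mean. Between replicates 1 and 3 the number of genes at least 1.5-fold apart was 187. Of 77 nuclear respiratory chain genes 3 were higher and 7 lower in the difference, where 15.1% and 11% of all genes were. Without THP-1 knockdown replicate 2, 8 were higher and 16 lower. The 7 were 17 without THP-1 knockdown replicate 1, 12 without replicate 3, and 4 in 5 other such fits. All 24 libraries in one fit gave 25 lower. Of 69 genes of G2 and mitosis 6 were higher and 6 lower in the difference, beside the same 15.1% and 11% of all genes. Without THP-1 knockdown replicate 2, 11 were higher and 11 lower. The number lower was 3 without K562 control replicate 1 and 10 without THP-1 knockdown replicate 1. In this list 22 rose and 3 fell in K562 and 15 rose and 1 fell in THP-1. The 3 were 1 to 7, with 7 without THP-1 knockdown replicate 2 and 1 without K562 control replicate 3. The 15 were 7 to 20, with 7 without THP-1 control replicate 2 and 9 without replicate 3.

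Of 29 genes of Polycomb repressive complex 1 tested, CBX7 among them, 4 were higher and 3 lower in the difference, where 15.1% and 11% of all genes were. In K562 4 rose and 9 fell, where 22.2% and 14.9% of all genes did. In THP-1 3 rose and 2 fell, near the 8.84% and 7.35% of all genes that did. These small counts moved with the libraries: 1 to 5 were higher in the difference when each was left out, 2 or fewer in 9 of the 12 fits, and 1 to 7 fell in THP-1, with 7 without THP-1 knockdown replicate 2 and 4 without replicate 1. BMI1, the PCGF4 subunit, fell in K562 and rose in THP-1. BMI1 was at 119, 123 and 120.4 CPM in K562 libraries labelled knockdown, against 166, 155 and 157 CPM in K562 controls. THP-1 libraries labelled knockdown held 225, 274 and 216 CPM of it, against 134, 152 and 156 CPM in controls, and the difference was -1.09 ± 0.13 (adjusted p = 0.000160). PCGF2, its paralog, had a difference of -1.12 ± 0.20 (adjusted p = 0.00232), and SCML2, a subunit that binds RNA, one of 0.64 ± 0.12 (adjusted p = 0.00349). Of 12 genes of Polycomb repressive complex 2, 1 was higher and none lower with all libraries, and 3 were higher without THP-1 knockdown replicate 2. The 1 gene was EZH2, the methyltransferase, at 0.32 ± 0.08 (adjusted p = 0.0129).

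Among 7 CDK inhibitor genes none was higher and 3 were lower in the difference. CDKN1A, the inhibitor p21, rose in both lines, to 26.7 ± 0.917 CPM in K562 libraries labelled knockdown, against 18.03 ± 1.00 CPM in K562 controls, and to 83.8 ± 6.59 CPM in THP-1 libraries labelled knockdown, against 33.8 ± 2.45 CPM in THP-1 controls. The difference was -0.75 ± 0.11 (adjusted p = 0.000821). Of 30 HOX genes 4 were higher and 4 lower, where 15.1% and 11% of all genes were, and 3 had at least 5 CPM in both lines. HOXB13 averaged 1.34 ± 0.0981 CPM in K562 libraries labelled knockdown and 0.181 ± 0.107 CPM in K562 controls, and 1.59 ± 0.106 CPM in THP-1 libraries labelled knockdown and 1.99 ± 0.277 CPM in THP-1 controls (difference 3.19 ± 0.50, adjusted p = 0.00101).

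Some other genes moved in opposite directions in the lines. PAQR4, a membrane protein of the progestin and adipoQ receptor family, was at 11.5, 8.19 and 6.38 CPM in K562 libraries labelled knockdown, against 67.1, 63.7 and 68.3 CPM in K562 controls. In THP-1 PAQR4 was at 81.3, 79.2 and 82.2 CPM in libraries labelled knockdown, against 15.5, 19.2 and 11.7 CPM in controls. Neither line's groups overlapped, and PAQR4 had a difference of -5.32 ± 0.30 (adjusted p = 1.11e-06). APOE, apolipoprotein E, was at 214, 222 and 190.0 CPM in K562 libraries labelled knockdown, against 517, 532 and 599 CPM in K562 controls. In THP-1 APOE was at 8.49, 10.5 and 7.83 CPM in libraries labelled knockdown, against 1.79, 1.42 and 1.4997 CPM in controls (difference -3.91 ± 0.18, adjusted p = 3.41e-07). SPP1, the secreted protein osteopontin, averaged 1.02 ± 0.260 CPM in K562 libraries labelled knockdown and 3.46 ± 0.428 CPM in K562 controls, and 6.54 ± 0.228 CPM in THP-1 libraries labelled knockdown and 1.32 ± 0.386 CPM in THP-1 controls (difference -4.07 ± 0.35, adjusted p = 1.87e-05).

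The opposite order, higher in K562 and lower in THP-1, was shown by MTURN, at 35.5, 33.3 and 32.4 CPM in K562 libraries labelled knockdown, against 11.2, 9.37 and 11.4 CPM in K562 controls. In THP-1 MTURN was at 6.56, 5.56 and 6.80 CPM in libraries labelled knockdown, against 11.3, 15.2 and 12.7 CPM in controls (difference 2.72 ± 0.18, adjusted p = 3.08e-06). MYO1G, a myosin of blood cells, averaged 0.312 ± 0.0220 CPM in K562 libraries labelled knockdown and 0.0516 ± 0.0209 CPM in K562 controls, and 77.5 ± 11.6 CPM in THP-1 libraries labelled knockdown and 157 ± 13.8 CPM in THP-1 controls (difference 3.64 ± 0.30, adjusted p = 1.24e-05). Both K562 means of MYO1G were under 1 CPM, and the control mean lay near the floor of 3 counts (0.0262 to 0.0399 CPM in K562 controls). Whether its K562 rise belongs with the traces described below was not tested. NLRC3, an inhibitor of innate immune signalling, averaged 1.48 ± 0.0788 CPM in K562 libraries labelled knockdown and 0.670 ± 0.134 CPM in K562 controls, and 3.26 ± 0.624 CPM in THP-1 libraries labelled knockdown and 7.24 ± 0.593 CPM in THP-1 controls (difference 2.29 ± 0.28, adjusted p = 0.000222).

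Many of the largest fitted differences belonged to genes near 0 in one line. Of the 12 highest named by the rule, 11 were at 0 in all 3 K562 controls and at group means of 0.164 to 0.873 CPM in K562 libraries labelled knockdown. BANK1, a B cell adaptor, was at 0.425, 0.395 and 0.0934 CPM in K562 libraries labelled knockdown, at 0 in K562 controls, and at 11.3, 11.2 and 12.6 CPM in THP-1 libraries labelled knockdown, against 28.5, 30.9 and 29.5 CPM in THP-1 controls. CTSG, cathepsin G of myeloid granules, was at 0.115, 0.135 and 0.420 CPM in K562 libraries labelled knockdown and at 0 in K562 controls, while THP-1 libraries held 579 ± 78.6 CPM when labelled knockdown and 561 ± 32.1 CPM as controls. FLI1, a transcription factor, followed the same pattern, at 0.115, 0.0867 and 0.490 CPM in K562 libraries labelled knockdown. A count of 0 allows up to 0.0262 to 0.0399 CPM in K562 controls (3 counts per library, counting error only).

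The reverse held in THP-1. SELENBP1, a selenium-binding protein of red cells, averaged 67.3 ± 0.719 CPM in K562 libraries labelled knockdown and 68.1 ± 1.44 CPM in K562 controls. In THP-1 SELENBP1 was at 0.104, 0.516 and 0.136 CPM in libraries labelled knockdown and at 0 in controls. CASK and HOXB2 were likewise at 0 in all THP-1 controls, and at 0.467, 0.486 and 0.150 CPM and 0.169, 0.185 and 0.0682 CPM in THP-1 libraries labelled knockdown. A count of 0 allows up to 0.0284 to 0.0367 CPM there.

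**Figure D5:**
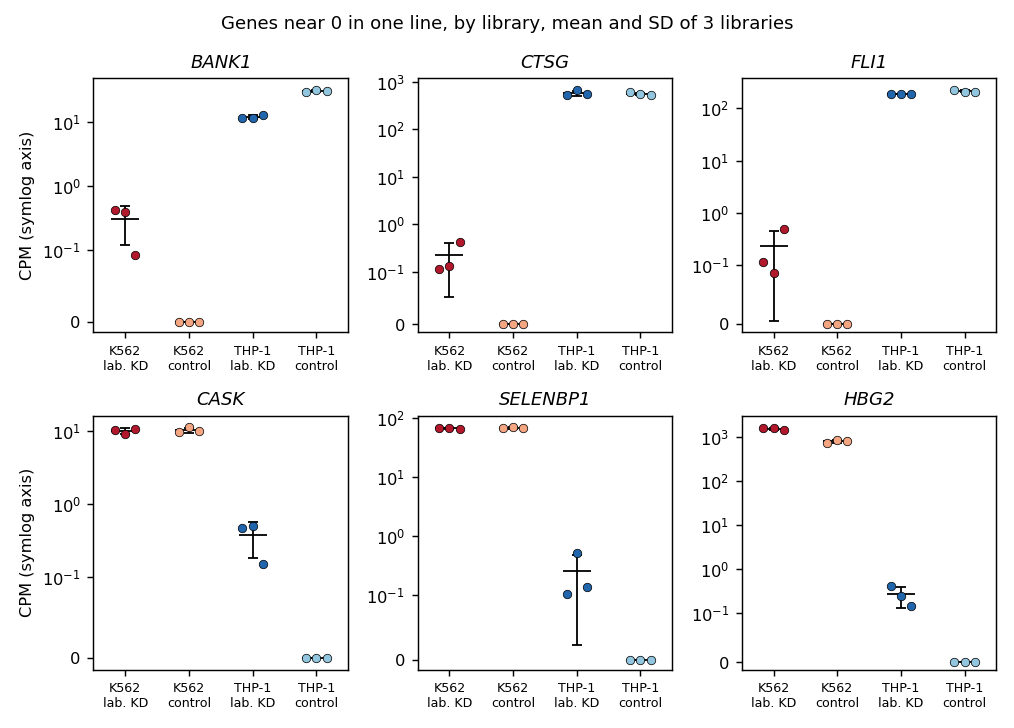
CPM (y axis, symlog, linear below 0.1) of 3 genes used by THP-1 (top) and 3 used by K562 (bottom) in each library of the 4 groups (x axis, lab. KD for labelled knockdown), with the mean and SD of 3 libraries. In the line that hardly uses the gene, every library labelled knockdown is above 0, with group means of 0.223 to 0.368 CPM, and every control is at 0.

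These traces followed the arm labels, and were counted only among genes that the other line uses. Libraries labelled knockdown also had more genes above 0 in all. In K562 these were 14849 to 15023, against 14340 to 14515 in controls, and in THP-1 15103 to 15208, against 14734 to 14939. Some markers of other cell types ran the other way in K562. GP9, PPBP, F9, F11, HRG and APOB were at 0 in all its libraries labelled knockdown and not in all its controls. Of 10383 genes at 5 CPM or more in both THP-1 groups, 34 were at 0 in all K562 controls and above 0 in all K562 libraries labelled knockdown, and 1 was the other way round. Of 9997 genes at 5 CPM or more in both K562 groups, the numbers in THP-1 were 16 and 1. Those 34 and 16 genes gave 33 higher and 15 lower calls in the difference between lines. Of 15 erythroid markers, 13 were above 0 in THP-1 libraries labelled knockdown and 8 in THP-1 controls. GYPB was at 0 in all THP-1 libraries labelled knockdown, and HBG1, HBG2, HBZ, HBA1, HBA2, GYPB and RHAG in all THP-1 controls. The globin list summed to 0.527 to 1.03 CPM of total counts in THP-1 libraries labelled knockdown and to at most 0.0623 CPM in THP-1 controls. It summed to 4102 to 4388 CPM in K562 libraries labelled knockdown. Of 15 monocytic markers, 15 were above 0 in K562 libraries labelled knockdown and 13 in K562 controls, where TLR2 and TLR4 were at 0. The part of these traces in the calls of the difference was not tested. The 34 and 16 trace genes had group means of at most 0.873 and 0.368 CPM in libraries labelled knockdown. They were picked for being at 0 in all controls, so these values give no limit for genes above 0 in controls.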

How the data were processed

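RNA was sequenced with a stranded total RNA kit in 24 libraries of 4 cell lines, of which the 12 of K562 and THP-1 were used. HISAT2 and StringTie and the build hg19 are named, per the submitters' processing notes, while versions, the annotation and the strand setting of counting are not given in the sources used here. The table the authors deposited holds estimated counts for 19475 genes, and a matching table the authors deposited holds FPKM, used in alternatives with limma on log2(FPKM + 1) and log2(FPKM + 0.1). Transcript tables were not used. The strand of counting not being given, overlapping and antisense genes cannot be told apart, nor near-identical copies.

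Estimated counts were rounded to whole numbers, filtered with filterByExpr and scaled by TMM. One edgeR (4.0.16, R 4.3.3) quasi-likelihood fit with 4 group means gave the arm change in each line and their difference, with Benjamini-Hochberg adjustment over 15434 genes and a threshold of 0.05. The fit shared the spread of each gene across all 4 groups, so the p-values of a line do not measure the spread of that line alone. CPM uses the TMM-scaled library sizes. Standard errors are the log2 fold change divided by the square root of F. Depth was 75278732 to 114268304 estimated counts in K562 and 75865875 to 108903517 in THP-1, and a floor of 3 counts was 0.0262 to 0.0399 CPM, for counting error only. Scripts were tested on simulated data. Alternatives used limma 3.58.1 and DESeq2 1.42.0, other scalings and filters, all 24 libraries, each line alone, and each library left out.

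Named genes were CBX7, the 12 highest and 12 lowest differences among genes that passed, reached 5 CPM in the highest group and did not overlap between lines, up to 8 genes of opposite change in each direction, 4 of the same change at each end, and the 2 highest and 2 lowest of each of 49 lists. Other genes were named after their values were seen. The comparison, members and lists were chosen with earlier results of these data known. Promoters came from RefSeq (GRCh38.p14), matched by symbol.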

Additional observations from a re-analysis of the deposited data

Results flagged for a closer look

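The change between arms differed between the lines by a test of that difference for 2338 genes that were higher and 1693 that were lower in K562 relative to THP-1. Among genes that changed in opposite directions, those higher in the difference were MROH7 (6.86), MYO1G (3.64), MS4A4E (3.56), SIGLEC12 (2.89), MTURN (2.72), FBXL16 (2.58) and NLRC3 (2.29), all log2 differences past an adjusted p of 0.05 in edgeR's quasi-likelihood test. Those lower in it were IFI44 (-6.19), PAQR4 (-5.32), SPP1 (-4.07), APOE (-3.91), PHLDA1 (-3.54) and SOCS1 (-3.01). OASL (-6.59) was also lower. Both K562 means of MYO1G were under 1 CPM, with the control mean near the floor of 3 counts.

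BANK1 had a fitted difference of 9.17 and ANKRD35 one of -7.75. BANK1 was at 0 in all K562 controls and ANKRD35 at 0 in all K562 libraries labelled knockdown, so both values depend on the prior count of the fit and are no bounds. BANK1, ANKRD35 and MROH7 lost the THP-1 call in at least 1 of the 12 fits that left out a library, while their calls in the difference held in all 12. IFI44 lost the K562 call in 3 of the 12 (adjusted p up to 0.0620) and kept its call in the difference.

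In A549, a lung carcinoma line outside the comparison, summed globin genes had a median of 2.05 CPM of total counts (1.97 to 2.81) in libraries labelled knockdown and 1.71 (0.897 to 1.77) in controls. In H1299, another lung line, they were at 5.39 to 6.76 and 9.67 to 11.2 CPM.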

How the results depend on the processing

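The difference between lines held 1884 to 3011 higher and 1327 to 2445 lower genes when each library was left out, against 2338 and 1693 with all 12. CBX7 kept its direction in every setting tried, and passed in the fit to all 24 libraries (0.34, adjusted p = 0.0234 by edgeR's quasi-likelihood test). With a limit of 2-fold, 998 genes were higher and 495 lower in the difference, 1298 and 344 in K562 and 386 and 88 in THP-1. At an adjusted p under 0.01 the counts were 1333 and 878, 2173 and 1430, and 692 and 493. Of genes of at least 5 CPM in both lines, tested alone, 2099 rose in K562. The main fit shared the spread of each gene between the lines, while limma-voom with a variance weight per line gave weights of 1.56 to K562 and 0.64 to THP-1. Each line fitted on its own 6 libraries gave 4012 higher and 3822 lower genes in K562, against 3426 and 2294 in the main fit. In THP-1 it gave 898 higher and 560 lower, against 1364 and 1134. DESeq2 gave 2114 higher genes in THP-1, and all 24 libraries in one fit gave 1714 lower. Leaving out each library gave 710 to 1645 lower genes in THP-1.

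Replicate numbers did not pair the samples, with correlations of same-numbered deviations of -0.012 to 0.032, and the replicate block gave 2022 higher and 1302 lower genes in the difference and 704 lower genes in THP-1. Small list counts in the difference also moved with the setting. Of Polycomb repressive complex 1, 2 were higher with DESeq2's size factors or the replicate block and 5 were lower with all 24 libraries or DESeq2. Of G2 and mitosis genes, 1 was lower with the replicate block and 12 with all 24 libraries or DESeq2. Of HOX genes, 1 was higher on log2(FPKM + 0.1). Of interferon genes, 4 were higher with all 24 libraries or DESeq2. Most of the 117 named genes were chosen by rules that asked for a call in the difference, or after their values were seen. The settings reused the same libraries, so the numbers that follow are no independent check. Of 2919 values of 117 named genes, 2877 kept direction and side of the threshold, 34 lost the call and 8 reversed. Of the 8, EPSTI1 was -0.024 without K562 control replicate 2 (-0.024 to 0.22 over the fits that left out a library), -0.58 with limma on log2(FPKM + 1) with and without a filter and -0.21 with log2(FPKM + 0.1). HBG2 was 0.46 and MMP2 was -0.31 on log2(FPKM + 1), with and without a filter. These genes are near 0 in one line or had no difference past the threshold, and the cause was not tested. With 3 libraries a group, small changes in THP-1, where replicate 2 labelled knockdown widens the spread, were the least well measured.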
